A study of Mus musculus with 2 samples.

Results

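The regions described here are 3106 stretches of autosomal DNA, each a tile of 2500 bp that holds few measured CpGs, in which methylation was under 40% in Rex1-high mouse embryonic stem cells and 70% or more in Rex1-low cells. They are called switching tiles below. Both samples came from 1 line, E14 cells of the 129/Ola strain with a destabilised GFP knocked in at Rex1 (Zfp42), grown on gelatin in LIF with 10% serum and sorted for GFP, so every cell measured carried the reporter and had been in serum. One reduced representation bisulfite sequencing (RRBS) library was made from the Rex1-high and 1 from the Rex1-low sort, and each state therefore has no replicate check. A statistical test between them compares these libraries and not the states. The Rex1-high library held 60718476 methylation calls and the Rex1-low library 61024229. In both, 1707425 CpG positions had a line, meaning 1 entry for the position, of 5 or more calls.

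A CpG is a cytosine followed by a guanine. Most CpGs of a mammalian genome carry a methyl group that Dnmt1 copies to the new strand at each replication and that Dnmt3a and Dnmt3b place anew, while Tet enzymes oxidise it and so help to remove it. Dense clusters of CpGs, the CpG islands, usually escape methylation, and sequence with few CpGs is usually methylated, but serum-grown stem cells are a mixture in which the Rex1-high cells are nearer to the naive state and the Rex1-low cells nearer to the primed state that precedes differentiation. Low methylation in CpG-poor sequence of somatic and stem cells is known chiefly from distal regulatory elements bound by transcription factors.

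The switching tiles were chosen from the same 2 libraries by their own methylation, so their levels are a description and carry no test. A tile had to hold 3 to 9 CpGs with a line of 5 or more calls in both libraries. Its mean over those CpGs had to be below 40% in Rex1-high and at least 70% in Rex1-low. No neighbouring tile could hold 40 or more such CpGs. Of 127267 autosomal tiles with 3 to 9 shared CpGs, called CpG-poor tiles here, 12776 (10.0%) were below 40% in Rex1-high. Of these, 11646 had no CpG-dense neighbour. Among the 11646, 3106 (26.7%, 95% Wilson interval 25.9% to 27.5%) were at 70% or more in Rex1-low, 5619 (48.2%) were between 40% and 70%, and 2921 (25.1%) stayed below 40%. Intervals cover counting error only, since reads copied by PCR and without molecular tags are not independent molecules. A further 123 tiles met both methylation limits beside a CpG-dense neighbour and were left out by the rule. The opposite pattern, 70% or more in Rex1-high and below 40% in Rex1-low, was met by 1 of 23895 tiles of the same kind.

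**Figure D1:**
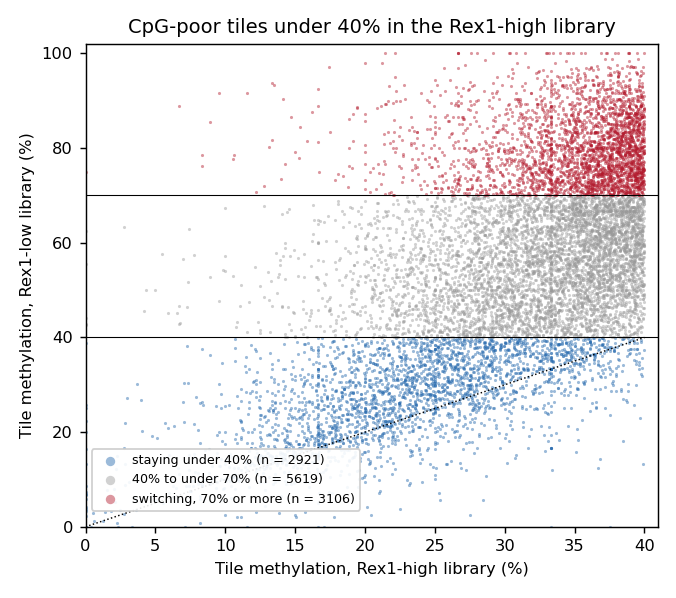
Mean methylation of the 11646 CpG-poor tiles under 40% in Rex1-high (x axis, %) against Rex1-low (y axis, %), 1 point per tile, with solid lines at 40% and 70% and a dotted line of equal levels. The 3106 switching tiles (red) crowd towards the right edge, 1888 of them between 35% and 40% in Rex1-high, and the 2921 tiles that stayed below 40% (blue) lie around the line of equal levels.

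Within the limits that define them, the switching tiles lay near the edge on the Rex1-high side and were spread on the other. Their median level was 36.2% in Rex1-high (quartiles 32.8% and 38.4%) and 79.2% in Rex1-low (quartiles 74.4% and 85.3%). In Rex1-high, 1888 tiles (60.8%) lay between 35% and 40%, 786 between 30% and 35%, 287 between 25% and 30% and 103 between 20% and 25%, so that 42 were below 20%. In Rex1-low, 882 (28.4%) lay between 70% and 75%, 785 between 75% and 80%, and 113 (3.64%) at 95% or more. The tiles were thus mostly intermediate and not unmethylated in the Rex1-high library. The median of all CpG-poor tiles was 60.0% in Rex1-high and 87.1% in Rex1-low.

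The increase from Rex1-high to Rex1-low had a median of 44.2 percentage points in the switching tiles (quartiles 38.9 and 50.7) and a maximum of 82.2 points. All CpG-poor tiles together had a median increase of 24.8 points, the tiles that ended between 40% and 70% one of 23.0 points, and the tiles that stayed below 40% one of 3.74 points. By Fisher's exact test on pooled calls with Benjamini-Hochberg adjustment over the 162599 tiles with 3 or more shared CpGs, an adjusted p below 0.05 and a difference of at least 10 points called 75.5% of all tiles as more methylated in Rex1-low. The same call was made in 3087 of the 3106 switching tiles (99.4%), a count that the rule largely fixes and from which nothing is read.

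How tightly the limits bound the switching tiles is seen in the tiles on either side of them. Just inside the 40% limit were chr3:95142501-95145000, at 40.0% in Rex1-high after rounding and 84.5% in Rex1-low, and chr1:60912501-60915000, also 40.0% after rounding and 72.5% in Rex1-low. Just outside, at exactly 40%, were chr1:55065001-55067500 and chr1:69702501-69705000, with 77.8% and 75.8% in Rex1-low. All 4 were picked among tiles at 70% or more in Rex1-low.

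At the other limit, chr1:82697501-82700000 and chr1:194120001-194122500 were at exactly 70% in Rex1-low and at 31.7% and 27.3% in Rex1-high. The tiles chr11:87580001-87582500 and chr2:135527501-135530000 fell short of 70% by less than 0.1 points and had 37.9% and 27.4% in Rex1-high. In each case the distance to the limit was far smaller than the counting error of a tile.

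The switching tiles were small samples of sequence. They held 14687 shared CpGs in all, with a median of 4 per tile (quartiles 3 and 6), that spanned a median of 115 bp of the 2500. In 2649 tiles (85.3%) the CpGs lay within 350 bp, the longest fragment that the size selection kept, against 69.4% of all CpG-poor tiles. A tile level here therefore mostly stands for a short stretch of the 2500 bp. The median tile rested on 91 calls in Rex1-high and 72 in Rex1-low, which gives a median 95% Wilson half-width of 9.69 points and 8.61 points. Neighbouring CpGs of a fragment are read on the same molecules, so their calls are not independent and the true error is wider.

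The share of low tiles that switched changed with how much was measured. Of the 11646 tiles, 47.6% (interval 44.7% to 50.5%) of those with fewer than 30 calls in the less covered library met the 70% limit, 38.1% of those with 30 to under 60, 25.7% of those with 60 to under 120, and 15.5% (14.4% to 16.6%) of those with 120 or more. By number of CpGs, the share fell from 36.6% of the tiles with 3 to 31.1% with 4 and 13.0% with 9. Tiles without any shared CpG in either neighbour switched in 32.7% of cases, and those with a neighbour of 10 to 39 shared CpGs in 16.0%. Call number, CpG number and the number of shared CpGs nearby move together in RRBS data, and the part of each in the share was not tested.

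The share also rose with the starting level. Tiles below 10% in Rex1-high switched in 6 of 162 cases (3.70%) and those from 10% to 20% in 36 of 1053 (3.42%). From 20% to 30% the share was 12.2% (390 of 3192), and from 30% to 40% it was 36.9% (2674 of 7239). A tile that starts lower needs a wider change to reach 70%, but the change itself also differed between these classes. The median went from 6.85% in Rex1-high to 13.3% in Rex1-low in the tiles below 10%. In those from 30% to 40% it went from 36.0% to 63.8%. The part of the limits in this order was not tested. Across the 19 autosomes the share lay between 22.4% on chromosome 17 (131 of 585 tiles) and 29.6% on chromosome 6 (183 of 619).

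Of the 42 switching tiles below 20% in Rex1-high, 23 had only 3 CpGs and 9 had 50 or more calls in each library. Their median depth was 36 calls in Rex1-high and 33 in Rex1-low, against 91 and 72 in the switching tiles as a whole. A stricter pair of limits, below 30% in Rex1-high and 80% or more in Rex1-low, held 197 tiles (6.34%), with medians of 26.2% and 86.6%. Of these 197, 93 had 3 CpGs, and 37 held 5 or more CpGs with no fewer than 50 calls in either library.

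Single CpGs showed how a tile mean near 36% was made up. The CpGs of switching tiles had a mean of 35.0% and a median of 28.6% in Rex1-high, and a mean of 79.6% and a median of 81.8% in Rex1-low. In Rex1-high their levels had 2 peaks, with 19.9% of CpGs between 10% and 20% and 13.9% between 50% and 60%, and only 5.92% between 40% and 50%. Of the 14687 CpGs, 5356 (36.5%) were at 20% or less in Rex1-high, 8232 (56.0%) at 80% or more in Rex1-low, and 1759 (11.98%) both. The corresponding shares over all CpG-poor tiles were 10.2%, 69.6% and 1.44%. A mean below 40% was thus reached with many CpG levels in between, part of them averages of unlike values as described below. Few CpGs went all the way from low to high.

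Direction was uniform across CpGs. The Rex1-low value was the higher at 14106 CpGs (96.0%) and the lower at 278 (1.89%), against 86.8% and 7.92% over all CpG-poor tiles. In 2550 tiles (82.1%) every shared CpG was higher in Rex1-low. The lowest CpG of the Rex1-low library stood above the highest of the Rex1-high library in 1142 tiles (36.8%), where the background over all CpG-poor tiles was 24.1%. Because the tiles were chosen by the difference itself, these counts are a description only. Some CpGs ran against their tile, and 652 (4.44%) were at 80% or more in Rex1-high already.

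**Figure D2:**
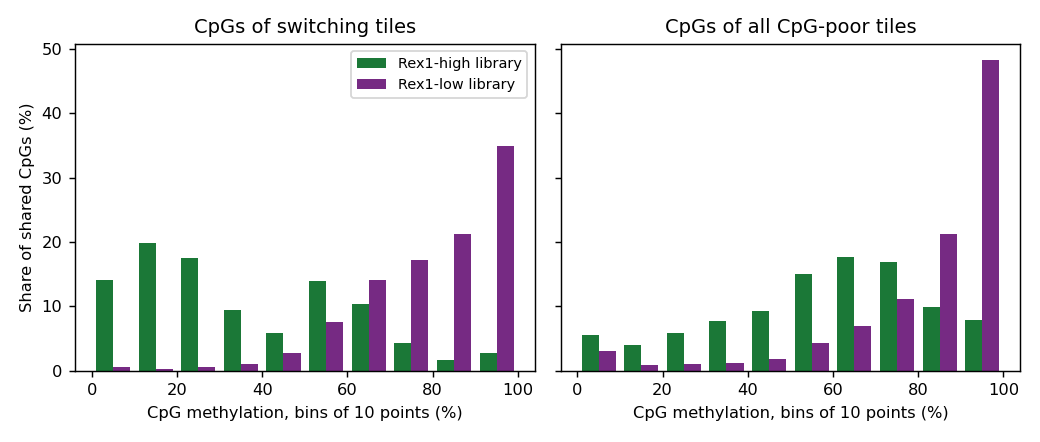
Share of shared CpGs (y axis, %) by methylation level in bins of 10 points (x axis, %), for the switching tiles at left and all CpG-poor tiles at right, in Rex1-high (green) and Rex1-low (purple). In switching tiles the green bars have 1 peak of 19.9% at 10% to 20% and another of 13.9% at 50% to 60%, while the purple bars rise to 34.8% in the top bin. The peak at 50% to 60% is partly made of averages of unlike values, as described below.

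A CpG level in these data can itself be a mean of unlike parts. The files give 1 or 2 lines for a CpG position, without naming what separates them, and a CpG level here is the mean of its lines. Of the CpGs in switching tiles, 70.4% had 2 kept lines in Rex1-high and 37.4% in Rex1-low. At 1815 CpGs (12.4%) the lines of the Rex1-high library were unlike, 1 at 80% or more and the other at 20% or less, so that a mean near the middle was not the level of either line. In Rex1-low this was so at 93 CpGs (0.633%). Over all CpG-poor tiles the shares were 6.28% and 1.68%, and in the tiles that stayed below 40% the Rex1-high share was 20.1%. The mean of 2 unlike lines lies between 40% and 60%. In Rex1-high, 870 CpGs of switching tiles were at 40% to 50% and 2046 at 50% to 60%. The peak at 50% to 60% is thus partly made of such means.

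At least 1 CpG with unlike lines in Rex1-high was present in 1399 switching tiles (45.04%), compared with 22.8% of all CpG-poor tiles and 73.1% of those that stayed low. The 5944 CpGs with 2 lines in Rex1-high and 1 in Rex1-low had a mean of 37.7% in Rex1-high, made of 57.1% in the higher and 18.3% in the lower line, and 82.2% in Rex1-low. The 4393 CpGs with 2 lines in each library had 37.5% and 75.01%, and the 3249 with 1 line in each had 29.6% and 81.4%. The 1101 with 1 line in Rex1-high and 2 in Rex1-low had 27.0% and 78.8%. A rise in each of these classes follows from how the tiles were chosen. Without CpGs of unlike lines, the remaining 12818 had means of 32.4% and 78.1%.

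The tiles with the widest change, among the 1256 that held 5 or more shared CpGs and had no fewer than 50 calls in either library, show the pattern CpG by CpG. Positions are those of mouse build mm9, and no gene annotation of that build was used here, so the tiles are given by position alone. In chr2:84505001-84507500 the mean rose from 16.6% to 92.5%, the widest change of these. Its 5 CpGs had 10.0% (1 of 10 calls), 0% (0 of 18), 11.5% (3 of 18), 61.5% (15 of 23) and 0% (0 of 5) in Rex1-high, and 83.3%, 100%, 100%, 78.9% and 100% in Rex1-low. With calls pooled, 19 of 74 (interval 17.1% to 36.7%) stood against 46 of 51 (79.0% to 95.7%). Each of the CpGs was higher in Rex1-low, and 1 of them was already mostly methylated in Rex1-high.

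In chr12:72110001-72112500 the change was the most even. Its 5 CpGs, within 35 bp, lay between 0% and 23.2% in Rex1-high (17 of 97 calls) and between 66.7% and 90.9% in Rex1-low (41 of 51 calls), for tile means of 13.1% and 80.2%. A tile on chr7:133257501-133260000 had more calls behind it, with 7 CpGs within 99 bp, 67 of 205 calls methylated in Rex1-high and 127 of 147 in Rex1-low. Its CpGs ranged from 8.93% to 47.9% in Rex1-high and from 73.3% to 100% in Rex1-low. The CpG at 47.9% was the mean of unlike lines and had 23 of 29 calls methylated in Rex1-high, so that by calls it was no lower than the lowest CpG of Rex1-low, with 24 of 31.

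The tile chr17:78312501-78315000, with 7 CpGs within 151 bp, had 74 of 223 calls methylated in Rex1-high (interval 27.3% to 39.6%) and 106 of 113 in Rex1-low (87.8% to 97.0%). Its first and last CpGs were at 60.8% and 63.6% in Rex1-high and the 5 between them at 15.04% to 31.2%, while all 7 were at 81.3% or more in Rex1-low. The low CpGs of the tile thus lay between the more methylated first and last ones. Neither neighbouring tile held a shared CpG, so the levels farther out are not known. On chr14:71002501-71005000 the 5 CpGs ran from 6.67% to 50% in Rex1-high (32 of 104 calls) and from 75.3% to 91.7% in Rex1-low (154 of 190 calls).

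Other tiles of this group rested on thinner or mixed data. In chr8:129360001-129362500 (27.7% to 93.1%), 1 of the 6 CpGs was at 100% in both libraries and the other 5 were at 22.5% or less in Rex1-high. In chr4:150710001-150712500 (29.6% to 90.4%) the CpGs were 1851 bp apart at the ends, and the level in Rex1-high was 75% and 73.1% at the first 2 and 0% at the last 3, each of which had 6 calls. In chr19:53335001-53337500 (24.4% to 84.1%), 4 of 7 CpGs were at 0% in Rex1-high on 5 or 6 calls each, and the other 3 between 49.2% and 66.7%. In the last 2 of these tiles the mean stood for a stretch of low CpGs and a stretch of high ones.

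Of the remaining tiles in this group, chr5:73247501-73250000 reached the highest level in Rex1-low, 98.9% from 37.6%, and chr1:154845001-154847500 rose from 33.1% to 92.7%. The tile chr3:88522501-88525000 rose from 26.6% (21 of 67 calls) to 90% (90 of 100 calls). The tile before it, with 19 shared CpGs, was at 21.5% and 22.2% and did not share the change. The tile chr10:117212501-117215000 rose from 29.1% to 91.7%, and the one before it, with 11 CpGs, from 62.1% to 93.3%.

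**Figure D3:**
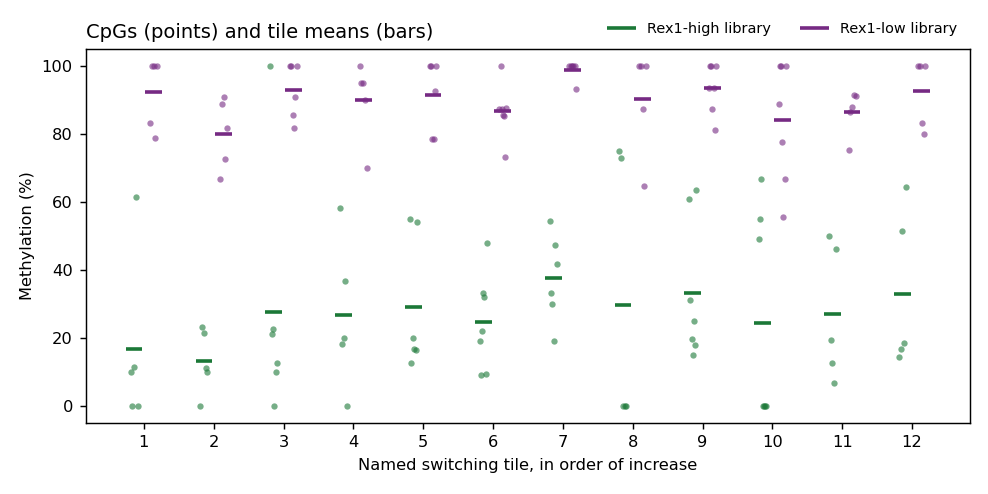
Methylation (y axis, %) of each shared CpG (points) and their mean (bars) in the 12 switching tiles of widest increase among the 1256 that met both minimums, Rex1-high in green and Rex1-low in purple, ordered from the widest increase (x axis, rank). The Rex1-low CpGs lie between 55.6% and 100%, while the Rex1-high CpGs of a tile are spread, from 0% to 75% in the 8th tile.

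The 6 switching tiles with most calls in the less covered library had increases of 30.8 to 47.1 points. In chr4:147025001-147027500, 158 of 424 calls were methylated in Rex1-high (interval 32.8% to 42.0%) and 347 of 459 in Rex1-low (71.5% to 79.3%). Of its 6 CpGs, 5 lay between 12.7% and 37.0% in Rex1-high and between 56.4% and 84.2% in Rex1-low, and the sixth was at 100% in both on 66 and 73 calls. In chr14:52870001-52872500, 1 of 8 CpGs within 53 bp was close to unmethylated in both libraries, at 1.61% and 4.08%, while the others rose to between 63.9% and 100%. A position at 0% or 100% in both libraries counts in the tile mean although it does not move, and whether such positions are CpGs in this strain was not tested.

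The tile chr8:119542501-119545000, with 9 CpGs, rose from 38.0% to 85.1%, and its CpGs lay between 16.7% and 70.8% in Rex1-high and between 69.96% and 100% in Rex1-low. On chr8:41502501-41505000 the mean rose from 38.5% to 80.3%. At 1 of its 9 CpGs the mean of the lines did not rise, at 69.7% and 68.8%. By calls that CpG had 25 of 45 methylated in Rex1-high and 19 of 29 in Rex1-low, a higher share in Rex1-low. The mean of chr4:125917501-125920000 rose from 35.1% to 74.4%, with 7 neighbouring CpGs at 16.8% to 39.4% in Rex1-high between outer ones at 63.9% and 57.1%. The tile chr11:101755001-101757500 was near both limits, at 39.5% and 70.2%, and its CpGs ran from 9.38% to 85.8% in Rex1-high. With calls pooled, 197 of 399 were methylated in Rex1-high (interval 44.5% to 54.3%), which is above the 40% limit. Low CpGs flanked by more methylated ones were thus seen in single tiles of both groups, such as chr17:78312501-78315000 and chr4:125917501-125920000. Other named tiles, such as chr12:72110001-72112500, did not show this. How often it occurs among switching tiles or other CpG-poor tiles was not counted.

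CpGs of the switching tiles that the rule did not use gave a separate view of the same places. These are positions listed in only 1 library, or with no single line of 5 or more calls in at least 1 of them. In Rex1-high, 34817 of 71136 calls at 9353 such CpGs were methylated (48.9%, interval 48.6% to 49.3%), and in Rex1-low 17996 of 24202 calls at 6761 CpGs (74.4%, 73.8% to 74.9%). The pooled level at the CpGs that the rule did use was 37.8% and 78.6%. The unused CpGs were thus 25.4 points higher in Rex1-low. Unused CpGs of all CpG-poor tiles had 50.1% and 72.9%, a difference of 22.8 points.

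At the 3373 unused CpGs listed in both libraries the levels were 50.5% and 75.2%, 24.7 points apart, and at those of all CpG-poor tiles 54.3% and 73.8%, 19.5 points apart. Taken tile by tile, 538 switching tiles had at least 10 unused calls in each library. Rex1-low was the higher in 493 of them (91.6%) and the lower in 41, with a median difference of 26.4 points, from 50% to 77.7%. The CpGs that chose the same 538 tiles differed by a median of 43.7 points. Over all CpG-poor tiles with as many unused calls, 88.2% were higher in Rex1-low with a median difference of 23.3 points, close to the 23.7 points of the CpGs used there. At unused CpGs the switching tiles thus exceeded CpG-poor tiles at large by less than at used ones, and the gaps were not tested.

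**Figure D4:**
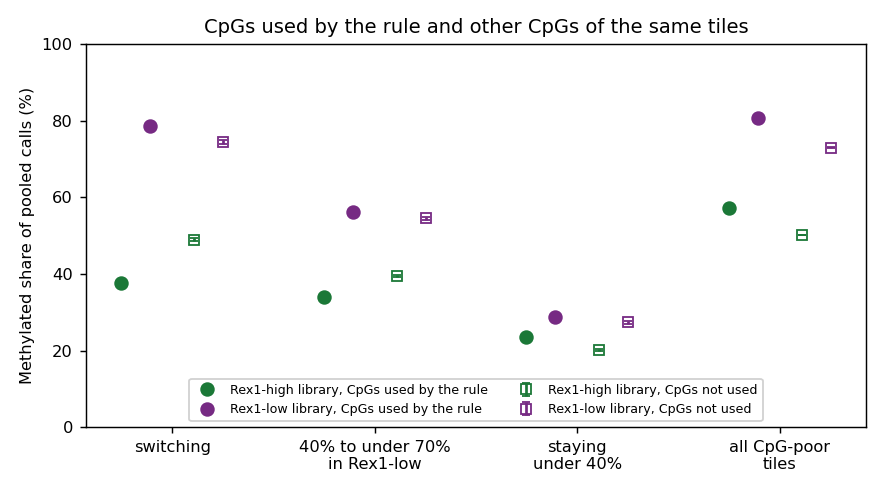
Methylated share of pooled calls (y axis, %) in 4 classes of CpG-poor tiles (x axis), at the CpGs that the rule used (filled circles) and at the other listed CpGs of the same tiles (open squares, with 95% Wilson intervals), for Rex1-high (green) and Rex1-low (purple). In switching tiles the green points part, 37.8% used and 48.9% unused, while in tiles that stayed below 40% the used and unused points lie close together.

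In the tiles that stayed below 40% the unused and used CpGs were closer in pooled calls. Their unused CpGs had 20.2% in Rex1-high and 27.4% in Rex1-low, beside 23.5% and 28.7% at the used CpGs. Tiles that ended between 40% and 70% had 39.6% and 54.5% at unused CpGs and 34.0% and 56.1% at used ones. In pooled calls the low Rex1-high level was thus met again at unused CpGs of the staying tiles, but not of the switching tiles. Taken tile by tile, unused CpGs stood above used ones in both. The medians in Rex1-high were 28.7% unused and 22.8% used in the 818 staying tiles with at least 10 unused calls in each library. In the 538 such switching tiles they were 50% and 35.7%.

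Levels were also compared by distance from the chosen CpGs. Unused CpGs within 50 bp of a used CpG of a switching tile, many of which can lie on the same reads, had 44.2% in Rex1-high and 72.0% in Rex1-low, and those 101 to 250 bp away had 52.0% and 74.7%. At 51 to 100 bp they had 50.5% and 72.7%, and at 251 to 1000 bp 48.8% and 74.4%. At 1001 to 2500 bp they had 54.3% and 81.5%, the highest of these distances. The Rex1-high level thus did not rise steadily with distance. Where a tile border ran close to its CpGs, 177 shared CpGs lay just outside, within 50 bp, with means of 48.1% and 79.7%. A further 359 shared CpGs lay 101 to 250 bp away outside the tile, with 50.5% and 75.04%, and 1349 lay 251 to 1000 bp away, with 43.7% and 64.8%. Beside the tiles that stayed low, the 841 shared CpGs within 50 bp outside had 17.4% and 21.0%. Unused CpGs inside those tiles had between 11.2% and 20.3% in Rex1-high at the distances up to 250 bp. They had 43.3% at 251 to 1000 bp and 50.04% at 1001 to 2500 bp, so their low level did not extend to these distances.

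Adjacent tiles extended this to the next 2500 bp. The 1704 tiles with 3 or more shared CpGs that lay beside a switching tile without being one had a median of 54.0% in Rex1-high and 83.04% in Rex1-low, with a median increase of 24.4 points. Of these, 1334 (78.3%, interval 76.3% to 80.2%) were called more methylated in Rex1-low and 0 less, against the background of 75.5%. With CpG-dense neighbours kept the share was 73.3% (71.2% to 75.3%), and with limits of 30% and 80% it was 74.3%, both below that background. Those with 3 to 9 CpGs, 1338 in number, were called in 82.0% of cases, and all tested tiles of that CpG number in 82.4%. Adjacent tiles of 3 to 9 shared CpGs were thus called about as often as all tested tiles with that number.

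Of the 1704 adjacent tiles, 372 (21.8%) were below 40% in Rex1-high, near the 20.9% of all tested tiles. The 366 adjacent tiles with 10 or more CpGs were an exception in their levels and in how often they were called. Their medians were 34.6% and 58.8%, and 64.8% (59.7% to 69.5%) were called more methylated in Rex1-low, compared with 24.9%, 34.0% and 47.3% over all tested tiles of 10 or more. The rule's limit on CpG-dense neighbours removes tiles of 40 or more CpGs from this set but not from the background. Beside the tiles that stayed low, the medians over 2101 tiles were 41.8% and 64.8%, and 58.3% were called.

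**Figure D5:**
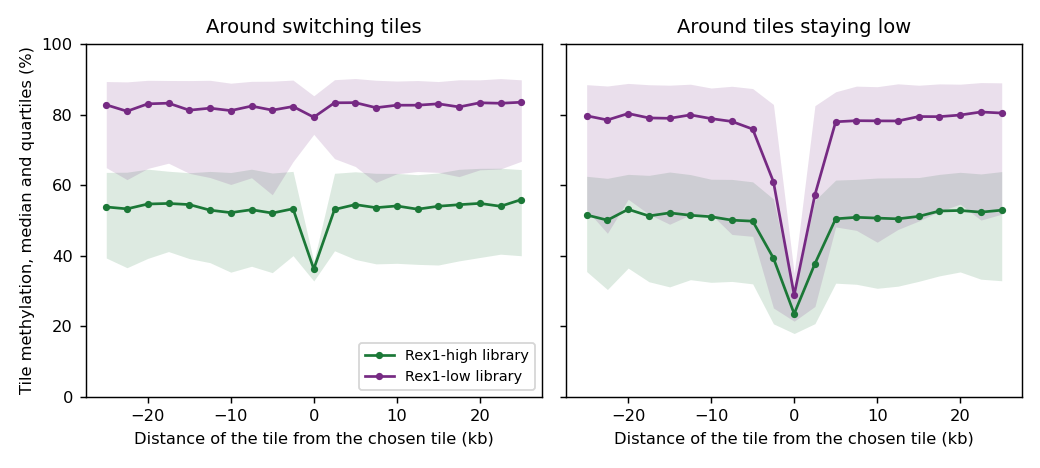
Median methylation of tiles (y axis, %, with quartiles shaded) at each distance up to 25 kb on either side (x axis, kb) of the switching tiles at left and of the tiles that stayed below 40% at right, Rex1-high in green and Rex1-low in purple. Around switching tiles the Rex1-high median is 53.3% and 53.1% in the very next tiles, before and after. Around tiles that stayed low both libraries are still lowered there, to 39.3% and 37.7% in Rex1-high.

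Out to 25 kb on either side of the switching tiles, the median of the tiles at each distance remained between 52.1% and 55.9% in Rex1-high and between 80.9% and 83.5% in Rex1-low. The level of the switching tiles themselves is set by the rule. Around the tiles that stayed low, the tiles next to them had medians of 39.3% and 37.7% in Rex1-high and 61.0% and 57.3% in Rex1-low, before and after.

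Most switching tiles stood alone. Of the 3106, 50 (1.61%) lay beside another, as 25 pairs, and no run of 3 was found. Of the tested tiles just before and just after a switching tile, 2.85% and 2.81% were switching tiles, against 1.90% and 1.85% of those just before and after any CpG-poor tile, a difference that was not tested. Another switching tile lay within 10 kb in 186 cases (5.99%), and the median distance to the nearest was 193.75 kb. Of the tiles that stayed low, 6.26% lay beside another of their kind and 11.7% had one within 10 kb, and of those that ended between 40% and 70%, 6.14% and 14.8%. In 1146 switching tiles (36.9%) neither neighbour held a shared CpG, near the 35.2% of all CpG-poor tiles.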

How the data were processed

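Per the labels and methods, DNA of sorted cells was cut with MspI and TaqI, size-selected in 2 ranges up to 350 bp, bisulfite-treated and sequenced on an Illumina HiSeq. The submitters' processing notes name Bismark 0.7 and build mm9. The authors deposited, for each library, CpG positions with a number of methylated over all calls and a score of 1000 at full methylation. Lines with at least 5 calls were averaged per position, and positions kept in both libraries were averaged per 2500 bp tile. Tiles were tested with Fisher's exact test, two-sided, on pooled calls with Benjamini-Hochberg adjustment. Scripts, tested on simulated data, used Python 3.11.15, NumPy 2.4.6, SciPy 1.17.1 and numba 0.67.0. Tiles named are the 12 of widest increase that held 5 or more CpGs and no fewer than 50 calls in either library, the 6 with most calls in the less covered library, and 2 on each side of each limit. The tiles and comparisons were chosen with earlier results of these data known. Gene annotation and sequence of mm9 were not used here. Alternatives were other minimums of calls, other means, other limits, other tile borders, handling of lines, and another test.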

Additional observations from a re-analysis of the deposited data

How the results depend on the processing

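The 7 main quantities were recomputed under 12 listed alternatives and 2 chosen after seeing the data, CpGs of 1 line in each library and a minimum of 50 calls per tile. Of 86 values, 50 stayed within their limits (1.5 times for the number of tiles, otherwise the counting interval or the tile half-width) and 36 moved. The half-width of a single tile was the limit for the medians of adjacent tiles. It is wide for a median over 1704 tiles (45.8% to 62.2% in Rex1-high), so values of these medians within limits say little. The number of switching tiles, 3106, became 6981 with the median over CpGs as the tile level, 1396 with 5 to 9 CpGs, 197 with limits of 30% and 80%, 1329 with CpGs of 1 line and 1866 with 50 calls per tile. The share of low tiles that switched, 26.7%, became 47.4%, 21.1%, 4.47%, 15.2% and 21.2% in the same order, 25.2% with lines summed before the minimum of calls, 25.3% with CpG-dense neighbours kept and 24.5% without CpGs of unlike lines. The share of CpGs at 20% or less and then 80% or more, 11.98%, became 9.08%, 9.43%, 39.4%, 21.6% and 8.32% in the first order, 9.14% with lines summed, 12.6% without unlike lines, 13.4% with 3 calls per line, 9.02% with 10, and 10.1% with calls pooled. The rise at unused CpGs, 25.4 points, became 26.2 with 3 calls per line and also with 5 to 9 CpGs, 26.3 with 10 calls per line and also with the median, 24.6 with pooled calls, 28.6 without unlike lines and 22.0 with CpGs of 1 line. The share of adjacent tiles called, 78.3%, became 74.9% with 3 calls (background 71.3%), 62.0% with a difference of 20 points (background 59.7%) and 48.1% with CpGs of 1 line (background 42.5%), where their median in Rex1-low became 70%. It turned from above to below the background of 75.5% with dense neighbours kept (73.3%). With limits of 30% and 80% the share was 74.3%, with an interval (65.2% to 81.7%) that covered the background. Fewer tiles or CpGs enter under several of these alternatives by construction, and other causes were not tested. No paired analysis was possible because each state has 1 library. Depth limits the tiles with few calls, whose half-widths reach 21.6 points in Rex1-high.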
